A study of Arabidopsis thaliana with 6 samples.

Results

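SWINGER (SWN) is a histone methyltransferase of Arabidopsis thaliana and a catalytic subunit of Polycomb repressive complex 2, which methylates lysine 27 of histone H3. In plants this mark usually lies over the bodies of silenced genes, and the complex is brought to some of them by DNA-binding proteins that recognise short sequence elements. VAL1 and VAL2 are B3-domain repressors of this kind, known above all for silencing the seed programme after germination. The regions described here are the places where SWN was found away from genes: of 13169 regions bound by SWN in at least 1 library, 1022 (7.76%) lay more than 1000 bp from every annotated gene, of whatever type. They are called gene-distant regions below.

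The data are chromatin immunoprecipitations with an antibody against GFP (abcam ab290), followed by sequencing, from whole seedlings 14 days old. The double-mutant plants carried the transgene pSWN:SWN-GFP in a swn val1 val2 background (SWN-GFP val1 val2, shortened to val1 val2 below, 2 libraries), and the plants they were set against carried it in a swn background with VAL1 and VAL2 intact (SWN-GFP, 2 libraries). In all of them the SWN promoter drove the fusion protein and the endogenous SWN gene was mutant, and in whole seedlings fewer cells with SWN at a site and less SWN per cell cannot be told apart. The 2 input libraries, 1 of each genotype, were not analysed here, and the series title states the question of whether VAL1 and VAL2 recruit SWN to its targets.

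Each immunoprecipitated library had its own peak list, with 9177 and 9618 peaks in val1 val2 and 8189 and 8666 in SWN-GFP. Peaks sharing at least 1 bp were joined across the 4 lists, and a merged region was a member when it overlapped no gene extended by 1000 bp on either side. Sequencing depth is unknown, because the lists hold no read totals. A region without a peak in a list is one where the peak caller's threshold was not passed, which does not show that SWN was absent. Whether the replicates were grown apart is not in the labels, and their spread may be technical.

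Gene-distant regions were few in every library and somewhat more numerous without VAL1 and VAL2. A peak lay in 498 and 583 of them in the val1 val2 lists, against 371 and 439 in the SWN-GFP lists. Both val1 val2 lists were above both SWN-GFP lists, and the means were 540.5 ± 60.1 and 405 ± 48.1 regions (SD, n = 2 each). The ratio of these means was 1.33, where the other 12147 regions gave 1.12, with 7777.5 ± 349 regions per list in val1 val2 and 6916 ± 283 in SWN-GFP (SD, n = 2 each). As a share of all peaks of a list, peaks in gene-distant regions made up 5.85% and 6.42% in val1 val2 and 4.90% and 5.44% in SWN-GFP. The sequence under them summed to 258 and 289 kb in the val1 val2 lists, against 185 and 216 kb in the SWN-GFP lists. Each of these 3 differences gave p = 0.333 in an exact two-sided permutation test over the 4 libraries, the smallest p that 2 libraries against 2 allow, so none could pass 0.05. The val1 val2 lists were also the longer ones, and with all lists cut to the 8189 strongest peaks the difference in regions with a peak was 49.5, with means of 435 in val1 val2 and 385.5 in SWN-GFP, instead of 135.5. Without SWN-GFP replicate 1 it was 78.5 (554.5 in val1 val2 and 476 in SWN-GFP), and without val1 val2 replicate 1 it was 205 (636 and 431).

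**Figure D1:**
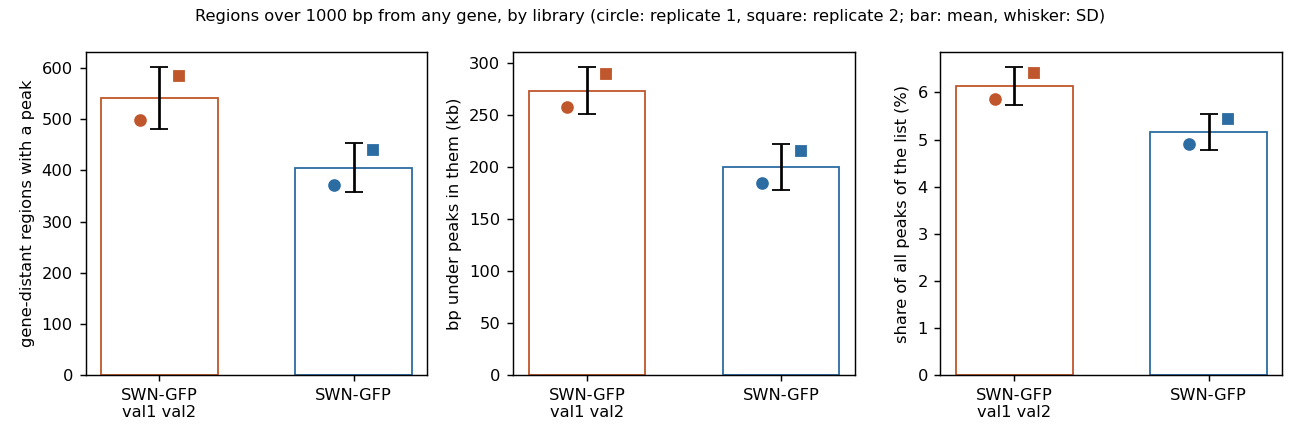
Number of gene-distant regions with a peak, the length under peaks in them (kb) and their share of all peaks of the list (%), for each library. Points are libraries, bars are means and whiskers are SD (n = 2); both val1 val2 libraries lie above both SWN-GFP libraries in all 3 panels.

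Peaks in gene-distant regions were short and weak compared with the rest of their own list. Their median length was 370 and 336 bp in the val1 val2 lists and 340 and 335 bp in the SWN-GFP lists, while the other peaks of the same lists had medians of 460, 464, 492 and 495 bp in that order. To compare strength, the authors' fold enrichment at each peak was turned into its percentile within its list. Peaks in gene-distant regions had a median percentile of 36.3 and 34.5 in val1 val2 and of 31.7 and 27.9 in SWN-GFP, against 51.2 to 51.4 for the other peaks. Both measures were lower in 4 of 4 lists, by 90 to 160 bp and by 15.0 to 23.5 percentile points (exact sign-change permutation p = 0.125 for each, the smallest that 4 lists allow). Membership was set on the merged extent of a region, so a longer region more easily comes near a gene and drops out. The shorter length is thus in part fixed by that rule, and the 4 lists share the same membership. The median percentile also differed between the genotypes by 5.57 points, with means of 35.4 ± 1.25 in val1 val2 and 29.8 ± 2.69 in SWN-GFP (SD, n = 2 each, exact permutation p = 0.333). Strong members existed all the same: 15 and 15 peaks of the val1 val2 lists and 9 and 8 peaks of the SWN-GFP lists were above percentile 90 of their list.

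These features were shared with regions that lie just outside genes. The 1902 regions located 1 to 1000 bp from a gene, a group added after the data were seen, had median fold percentiles of 35.5 and 33.7 in the val1 val2 lists and 32.9 and 30.5 in the SWN-GFP lists. The gene-distant regions were above them in 2 lists and below them in 2, by -2.63 to 0.81 points (exact sign-change permutation p = 0.625). Their peaks were longer by 3.5 to 38 bp in 4 of 4 lists (exact sign-change permutation p = 0.125). Regions that overlapped a gene had median percentiles of 53.4 to 54.2. At the threshold itself, the 101 gene-distant regions up to 1100 bp from a gene had a median length of 336 bp and a median percentile, averaged over lists, of 30.8. The 121 regions over 900 and up to 1000 bp from a gene, just short of membership, had 363 bp and 26.9.

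Most gene-distant regions did not recur across the 4 libraries. A region is called kept when all 4 lists have a peak in it, lost when each SWN-GFP library but no val1 val2 library has one, gained in the reverse case, and mixed otherwise. Of the 1022 gene-distant regions 126 (12.3%) were kept, where 31.0% of all regions were. Merging peaks of more lists can lengthen a region, so the membership rule bears on this share too. The lost ones numbered 93 (9.10%), where 8.91% of all regions were lost, and the gained ones 153 (15.0%), where 12.3% of all regions were gained. The share lost is near that of the whole set. It was lower when peaks below 4-fold were dropped, where 8 of 94 gene-distant regions were lost (8.51%, against 17.0% of all regions). That cut is not alike in the lists: folds of 4.04 and 3.94 stood at percentiles 71.5 and 72.2 in the SWN-GFP lists. In the val1 val2 lists folds of 4.00 and 4.05 stood at 76.4 and 79.6. A region lost at that cut may hold a val1 val2 peak just under 4-fold. The 650 mixed ones (63.6%, against 47.9% of all regions) included 507 regions with a peak in a single list. These were 49.6% of the gene-distant regions, where 33.1% of the other regions had a peak in a single list. Of the 507, 118 and 193 were in the val1 val2 lists and 70 and 126 in the SWN-GFP lists. With the lists cut to equal length, 116 of 893 gene-distant regions were gained (13%) and 105 lost (11.8%), where 10.6% and 10.7% of all regions were. Leaving out a library makes both classes larger, since fewer lists must hold a peak: 376 (38.9%) were gained without val1 val2 replicate 1, where 27.3% of all regions were, and 244 (24.5%) were lost without SWN-GFP replicate 1, where 18.7% of all regions were. Among the 1902 regions 1 to 1000 bp from a gene, 12.7% were kept, 8.83% lost, 12.3% gained and 66.2% mixed.

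The gained share was higher in the regions farthest from genes. Of 177 regions over 2500 and up to 4000 bp from a gene, 36 (20.3%) were gained and 12 (6.78%) lost, and of 52 regions beyond 4000 bp, 10 (19.2%) were gained and 2 (3.85%) lost. Of 409 regions over 1000 and up to 1500 bp away, 54 (13.2%) were gained and 40 (9.78%) lost. These are counts of regions in the same 4 libraries, some of them neighbours in the same intergenic space, and the trend was not tested.

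**Figure D2:**
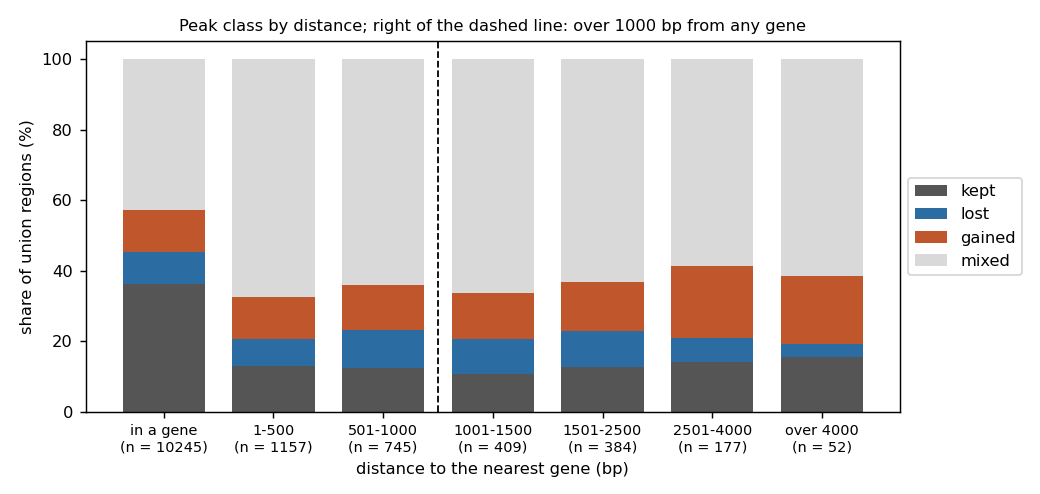
Share of union regions (%) that were kept, lost, gained or mixed, by distance to the nearest gene in bp; n is the number of regions in each bar. The kept share is 36.2% for regions that overlap a gene and between 10.8% and 15.4% in each group outside genes, and the gained share is 20.3% and 19.2% in the groups beyond 2500 bp.

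Weak peaks recur less often wherever they lie, so recurrence was also compared between peaks of similar strength. A peak counted as found in another list when its merged region held a peak of that list, even without direct overlap. Longer regions meet this more easily, and the other regions had a median length of 527 bp, against 374.5 bp for gene-distant ones. Up to percentile 25 of a list, a mean of 45.6% of the peaks in gene-distant regions also had a peak in the other replicate (39.2% to 51.0% over the 4 lists), against 57.7% of the other peaks (52.3% to 63.2%). Above percentile 75 every peak in a gene-distant region, 188 over the 4 lists, was found in the other replicate, as was a mean of 99.97% of the other peaks. Of these strong peaks, 83.0% (81.6% to 84.1%) in gene-distant regions were found in the other genotype, averaged over its lists. The share was 92.1% (91.7% to 92.9%) for other strong peaks. Between percentiles 50 and 75, the share found in the other replicate was 91.0% for gene-distant regions and 93.9% for other regions, and the share found in the other genotype was 57.0% (47.7% to 67.1%) and 72.4% (67.6% to 77.0%). In each of the 4 bands and each list, the share found in the other genotype was lower for gene-distant regions than for other regions. The bands are wide, neither rank nor region length was matched within them, and the difference was not tested. By regions, 28.7% of the 150 gene-distant regions with a mean percentile between 50 and 75 were kept and 26.0% gained. Of the 264 regions in that band 1 to 1000 bp from a gene, 39.0% were kept and 21.2% gained. Of the 2559 in that band that overlapped a gene, 52.6% were kept and 13.7% gained. Above a mean percentile of 75, 77.1% of 35 gene-distant regions were kept, and 73.8% of 61 regions 1 to 1000 bp from a gene.

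**Figure D3:**
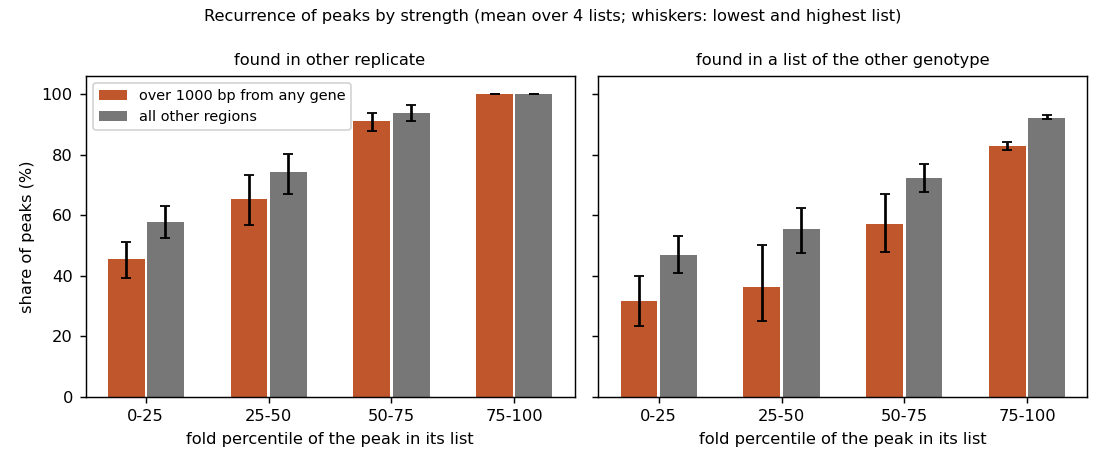
Share of peaks (%) whose merged region also held a peak of the other replicate (left) or of a list of the other genotype (right), by band of fold percentile. Bars are means over the 4 lists and whiskers the lowest and highest list; above percentile 75 the shares in the other genotype are 83.0% for gene-distant regions and 92.1% for other regions.

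Where both genotypes held a peak, gene-distant regions tended to be covered more without VAL1 and VAL2. Of the 126 kept ones, 55 (43.7%) were covered over more bp in both val1 val2 lists than in any SWN-GFP list and 21 (16.7%) over fewer. Of all kept regions 36.6% were covered more and 27.1% less. The median cover of the kept gene-distant regions was 725 bp in val1 val2 and 544 bp in SWN-GFP, and the median ratio was 1.19, against 1.05 for other kept regions. By rank within the lists, 58 of the 126 (46.0%) stood higher in both val1 val2 lists and 17 (13.5%) lower, where 39.8% and 27.4% of all kept regions did. The val1 val2 lists were also the longer ones, and these differences were not tested.

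The strongest kept regions, those of highest percentile averaged over the lists, stood at mean percentiles between 88.4 and 97.6. The top one, on chromosome 4 at 9898266 to 9902576 (TAIR10), was also the longest of all gene-distant regions with 4311 bp. Its nearest gene is AT4G17800 at 1578 bp, which encodes the AT-hook protein AHL23. Its peaks covered 3375 and 3846 bp in the val1 val2 lists and 4311 and 4016 bp in the SWN-GFP lists, so it was covered less in both double-mutant libraries. The authors' fold there was 9.63 and 9.64 in val1 val2 and 10.3 and 11.0 in SWN-GFP, each in its own list. The region ranked at percentiles 97.2 to 98.0 in all 4 lists.

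The next in rank, on chromosome 3 at 9363178 to 9365942, lay between AT3G25700, the nearer gene at 2596 bp, and BHLH32 at 3557 bp. BHLH32, also known as TMO5, is a transcription factor of vascular development. The region had folds of 8.07 and 6.67 in val1 val2 and of 8.39 and 9.36 in SWN-GFP, and it was covered over 2621 and 2575 bp in val1 val2, against 2034 and 2435 bp in SWN-GFP. Both flanking genes held a peak in all 4 lists.

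A region on chromosome 5 at 21592029 to 21594013 lay 1977 bp from AT5G53220 and 2774 bp from SPCH, the transcription factor that starts the stomatal lineage. AT5G53220 held no peak in any list, and SPCH held one in all 4. The fold in the region was 10.3 and 9.88 in the val1 val2 lists and 6.53 and 5.53 in the SWN-GFP lists, and the cover was 1966 and 1857 bp in val1 val2, against 1571 and 1513 bp in SWN-GFP. Its percentiles of 98.1 and 98.0 in val1 val2, against 90.5 and 87.1 in SWN-GFP, did not overlap between the genotypes.

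CYP707A3 (AT5G45340), which encodes a hydroxylase that breaks down abscisic acid, was 3025 bp from a region on chromosome 5 at 18374046 to 18376163. Its peaks covered 1526 and 2118 bp in val1 val2, against 1238 and 1006 bp in SWN-GFP. The fold was 6.78 and 8.98 in val1 val2 and 6.09 and 5.20 in SWN-GFP. Cover was higher in both double-mutant libraries, as was the percentile, at 93.7 and 97.4 in val1 val2 and 88.6 and 85.0 in SWN-GFP.

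The region next to AT5G19250, on chromosome 5 at 6474338 to 6475733, had FAF3, a regulator of shoot meristem size, on its other side at 3665 bp. The fold was 6.61 and 7.01 in the val1 val2 lists and 5.54 and 5.33 in the SWN-GFP lists. The region next to AT3G57120, on chromosome 3 at 21142931 to 21145229, had BOP1, which patterns leaf and flower boundaries, on its other side at 2329 bp. It was covered over 2174 and 1950 bp in val1 val2, against 1611 and 1495 bp in SWN-GFP. In both cases the nearer gene held no peak and the farther one held a peak in all 4 lists. Genes on the farther side, here and below, were named after their values were seen.

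The other strongest kept regions lay nearest to AT1G32045, AT1G76510, AT3G43315 and AT2G25780, at distances of 2480, 1773, 1090 and 1042 bp. AT1G32045 and AT3G43315 are pseudogenes, and the protein-coding gene nearest to the AT3G43315 region was 14114 bp away. Of the 10 strongest kept regions, 5 ranked higher in each val1 val2 list than in any SWN-GFP list and 0 ranked lower, while 6 were covered more and 1 less. The background shares for kept regions are 39.8% and 27.4% by rank and 36.6% and 27.1% by cover.

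Of the 5 longest gene-distant regions, the remaining 3 were also kept. The region of 4168 bp on chromosome 2 at 17742424 to 17746591 lay 1190 bp from LSH10, a gene of the ALOG family of developmental regulators. It was covered over 3958 and 3085 bp in val1 val2 and over 2476 and 3193 bp in SWN-GFP, so the genotypes overlapped. The region of 2779 bp lay on chromosome 4 at 14637336 to 14640114, at 1235 bp from AT4G29920 (SMXL4, a gene of phloem formation). The region of 2680 bp lay on chromosome 3 at 896252 to 898931. It lay between the long non-coding RNA gene AT3G01305, the nearest gene at 1623 bp, and WOX11, a homeobox gene of root founder cells, at 4023 bp. Its nearest protein-coding gene was AT3G03670 at 2797 bp, which was kept. The fold in this region was 6.40 and 6.74 in the val1 val2 lists and 4.51 and 5.09 in the SWN-GFP lists. Its percentiles were 92.4 and 94.1 in val1 val2, against 77.5 and 84.3 in SWN-GFP.

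**Figure D4:**
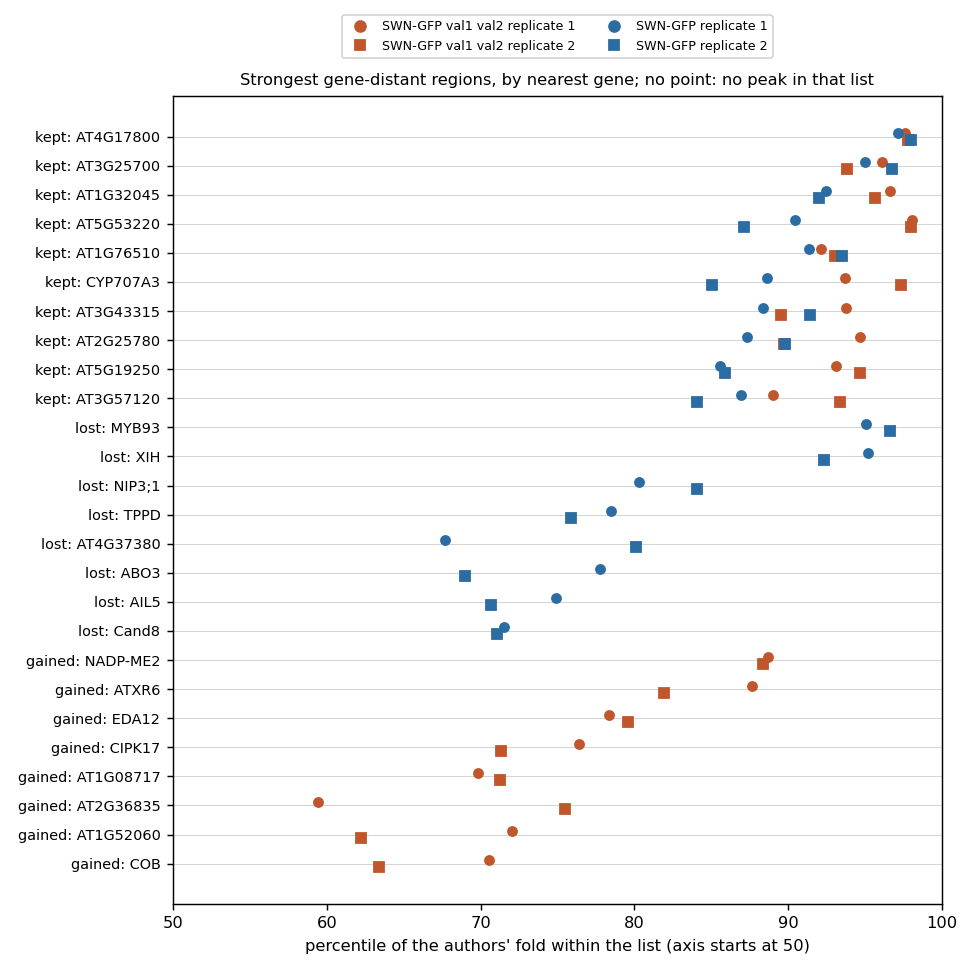
Percentile of the authors' fold within each list (x axis, starting at 50) for the 10 strongest kept, 8 strongest lost and 8 strongest gained gene-distant regions, each labelled with its nearest gene. The lost region near MYB93 ranks at 95.1 and 96.7 in the SWN-GFP lists and the gained region near NADP-ME2 at 88.7 and 88.3 in the val1 val2 lists.

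Among the lost regions, 2 were as strong as the strongest kept ones. The leading one lay on chromosome 1 at 12705312 to 12707350, at 1740 bp from MYB93 (AT1G34670), a MYB transcription factor that restrains lateral root development. It had no peak in the val1 val2 lists, and in the SWN-GFP lists folds of 8.44 and 9.27, with 1151 and 2039 bp covered. MYB93 itself was mixed. The next lay on chromosome 4 at 14183854 to 14185260, at 1686 bp from the myosin gene XIH and 7309 bp from YUC8, which encodes an enzyme of auxin synthesis. It too had no peak in the val1 val2 lists, and folds of 8.48 and 6.96 in the SWN-GFP lists. XIH held no peak, while YUC8 held one in all 4 lists.

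The other 6 of the 8 strongest lost regions had folds between 3.74 and 5.07 in the SWN-GFP lists. Their nearest genes were NIP3;1, of the aquaporin family, TPPD, a trehalose-6-phosphate phosphatase gene, AT4G37380, the WRKY factor gene ABO3, AIL5, an AP2-type regulator also known as PLETHORA 5, and Cand8, a gene for a candidate receptor. The region near NIP3;1, on chromosome 1 at 11453484 to 11454933, had folds of 4.80 and 5.07 in SWN-GFP and no peak in val1 val2. The region near AIL5, on chromosome 5 at 23257933 to 23258950 and 1230 bp from that gene, had folds of 4.30 and 3.85 in SWN-GFP and no peak in val1 val2. AIL5 itself was kept. The farther neighbour of the AT4G37380 region was BRU6 at 2835 bp, an auxin-conjugating enzyme gene that was kept.

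The strongest gained regions were weaker within their lists than the leading lost ones. The leading one lay on chromosome 5 at 3751365 to 3753054, at 1037 bp from NADP-ME2 (AT5G11670), a malic enzyme gene, which was itself gained. Its fold was 5.45 and 5.24 over 1690 and 1508 bp in the val1 val2 lists, with no peak in the SWN-GFP lists. The next lay on chromosome 5 at 8291231 to 8292463, at 2647 bp from ATXR6, which encodes a methyltransferase of lysine 27 of histone H3 in heterochromatin. Its fold was 5.26 and 4.32 in the val1 val2 lists, with no peak in the SWN-GFP lists, and ATXR6 itself held no peak.

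The other 6 of the 8 strongest gained regions had folds between 3.16 and 4.16 in the val1 val2 lists. Their nearest genes were EDA12, known from an embryo sac mutant, the protein kinase gene CIPK17, the long non-coding RNA gene AT1G08717 (with AT1G64620 as the nearest protein-coding gene), AT2G36835, AT1G52060 and COB, which controls the direction of cell expansion. The COB region, on chromosome 5 at 24509261 to 24510039, had AGL8 on its other side at 2992 bp. It sat beside a kept gene-distant region at 24507425 to 24509087, which was 1156 bp from AGL8, the floral and fruit regulator FRUITFULL. In the kept region near AGL8 the cover was 1176 and 1632 bp in val1 val2, against 610 and 679 bp in SWN-GFP. Its fold was 3.98 and 4.08 in val1 val2 and 6.53 and 3.94 in SWN-GFP, each in its own list. The percentiles were 76.1 and 79.9 in val1 val2 and 90.4 and 72.2 in SWN-GFP, where the genotypes overlapped.

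Of the gene-distant regions, 8 lay next to 7 well-known developmental regulators. These belong to 51 genes in 5 lists of flowering, embryo, floral, meristem and Polycomb genes, and being next to means being the nearest protein-coding gene, as 801 of all 27432 protein-coding genes were. FT, the gene of the flowering hormone made in leaves, had 2, both gained. They lay on chromosome 1 at 24335016 to 24335539 and 24335564 to 24336319, at 1017 and 1565 bp from FT. The nearer had folds of 2.43 and 2.67 and the farther folds of 2.63 and 3.00 in the val1 val2 lists, and neither had a peak in the SWN-GFP lists. With percentiles between 19.6 and 57.3 they were weak to middling peaks of their lists.

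STM, which maintains the shoot meristem, had a lost region at 2191 bp, on chromosome 1 at 23064254 to 23064918. It had no peak in val1 val2 and folds of 2.24 and 3.16 in the SWN-GFP lists, at percentiles 5.57 and 56.4. LEC2, a regulator of embryogenesis, had a mixed region at 1206 bp, on chromosome 1 at 9901082 to 9901905. It had folds of 3.23 and 3.24 in the val1 val2 lists, and 2.20 in SWN-GFP replicate 1 with no peak in replicate 2. The regions near KNAT1, KNAT2 and SEP2 each had a peak in a single list, and no gene of the Polycomb and VAL list had a region next to it.

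The nearest genes of gene-distant regions often held SWN themselves, although many did not. For 612 of the 1022 regions (59.9%, exact binomial interval 56.8% to 62.9%, counting error only) a peak of some list overlapped the nearest gene. The interval treats regions as independent, although they had 821 different nearest genes, 152 of them nearest to 2 or more regions, so it is likely too narrow. Counted once each, 435 of 684 protein-coding nearest genes (63.6%) held a peak, where 29.0% of all protein-coding genes did. Protein-coding genes beside intergenic gaps of over 2200 bp that held no gene-distant region held a peak in 40.4% of 5999 cases. Of gaps over 2200 bp, 82.1% of the 698 with a gene-distant region had a peak in at least 1 of the flanking genes, against 48.8% of those without. Among the 146 gaps over 10000 bp the shares were 85.4% and 19.4%. In the groups of shorter gaps they were 79.7% to 84.0% with a gene-distant region and 46.0% to 51.1% without.

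The class of a region and that of its nearest gene went together only in part. Of the 93 lost regions, 14 had a lost nearest gene, 1 a gained one, 29 a kept one and 37 one without a peak. Of the 153 gained regions, 1 had a lost nearest gene, 14 a gained one, 51 a kept one and 59 one without a peak. Of all 1022 nearest genes, 35 were lost, 54 gained, 387 kept and 410 without a peak. Over all genes of the table, 2.23% were lost, 3.12% gained, 10.3% kept and 75.7% without a peak.

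By type, 857 of the 1022 nearest genes (83.9%) were protein-coding, where 72.4% of the table is. Another 94 (9.20%) were long non-coding RNA genes (9.19% of the table), 35 were pseudogenes (3.42%, against 10.3% of the table) and 8 were microRNA genes. The distance to the nearest gene had a median of 1685 bp and a maximum of 8597 bp, with 363 regions beyond 2000 bp and 16 beyond 5000 bp.

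Gene-distant regions were sparse in the stretches of chromosome that are rich in pseudogenes. The space over 1000 bp from any gene adds up to 13.2 Mb, 11.0% of the spans between the outermost genes. Of this space, 30.8% has more pseudogenes than protein-coding genes within 100 kb on either side, and it held 31 of the regions (3.03%). That is 7.65 regions per Mb there, against 109 per Mb in the rest of the space. Of these 31 regions 0 were lost, 10 gained and 3 kept, against 93 lost, 143 gained and 123 kept of the 991 in the rest of the space, where 8.91% of all union regions were lost, 12.3% gained and 31.0% kept. The other union regions lay in such stretches in 2.46% of cases. Across chromosomes the number of regions per Mb of space was between 71.0 on chromosome 3 and 84.1 on chromosome 1.

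About as many gene-distant regions had a neighbour of their kind as stood alone: 519 of the 1022 shared an intergenic gap with another, and the 1022 lay in 698 gaps. Neighbours in a gap are not independent of each other. In 195 gaps with 2 or more, 3 held both a lost and a gained region, 6 held 2 or more lost and 23 held 2 or more gained regions, counts with no background to read them against. Summed over a gap, the cover was higher in each val1 val2 list than in any SWN-GFP list in 28.5% of the 698 gaps and lower in 16.9%. Among the 11 gaps with 5 or more regions it was higher in 9 and lower in 0, but peaks of the val1 val2 lists alone can bring a gap to that number, so this count is in part fixed by the choice of gaps. Among the 184 gaps with 2 to 4 regions it was higher in 89 and lower in 43, a count open to the same selection. Among the 503 gaps with 1 region it was higher in 101 (20.1%) and lower in 75 (14.9%).

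The gap with the most regions, 8, lies between NCED3, which encodes the key enzyme of abscisic acid synthesis under drought, and CID9 on chromosome 3. It is 15523 bp long, and the regions spread from 4835366 to 4848067. They were covered over 2096 and 1477 bp in val1 val2 and over 1228 and 2402 bp in SWN-GFP, so the genotypes overlapped. The 2 kept ones, 3630 and 7003 bp from NCED3, had folds between 2.48 and 3.64 in the 4 lists.

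The gap between CLE7 and CLE5, genes of signalling peptides, on chromosome 2 held 7 regions. These were covered over 1786 and 2154 bp in val1 val2, against 530 and 892 bp in SWN-GFP. Between the homeobox gene BLH1 and EDA12, on chromosome 2 from 15098761 to 15102544, lay 5 regions of which 4 were gained. They were covered over 1708 and 2233 bp in val1 val2 and over 0 bp in both SWN-GFP lists. In the gap beside CYP707A3 the cover was 2184 and 3007 bp in val1 val2 and 1438 and 1006 bp in SWN-GFP. A related gene, CYP707A1 (AT4G19230), lay beside a gap of 6 regions with 1708 and 1923 bp covered in val1 val2, against 657 and 1459 bp in SWN-GFP. These gaps are some of the 11 with 5 or more regions, a number that counts the peaks of all 4 lists. They were not chosen by that number alone, and other gaps with 5 or 6 regions are not described. Among those, the gap between AT1G61660 and AT1G61667 was covered over 627 and 2007 bp in val1 val2. In SWN-GFP it was covered over 1127 and 1370 bp, so the genotypes overlapped. In the rest of those not described, cover was higher in each val1 val2 list than in any SWN-GFP list.

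**Figure D5:**
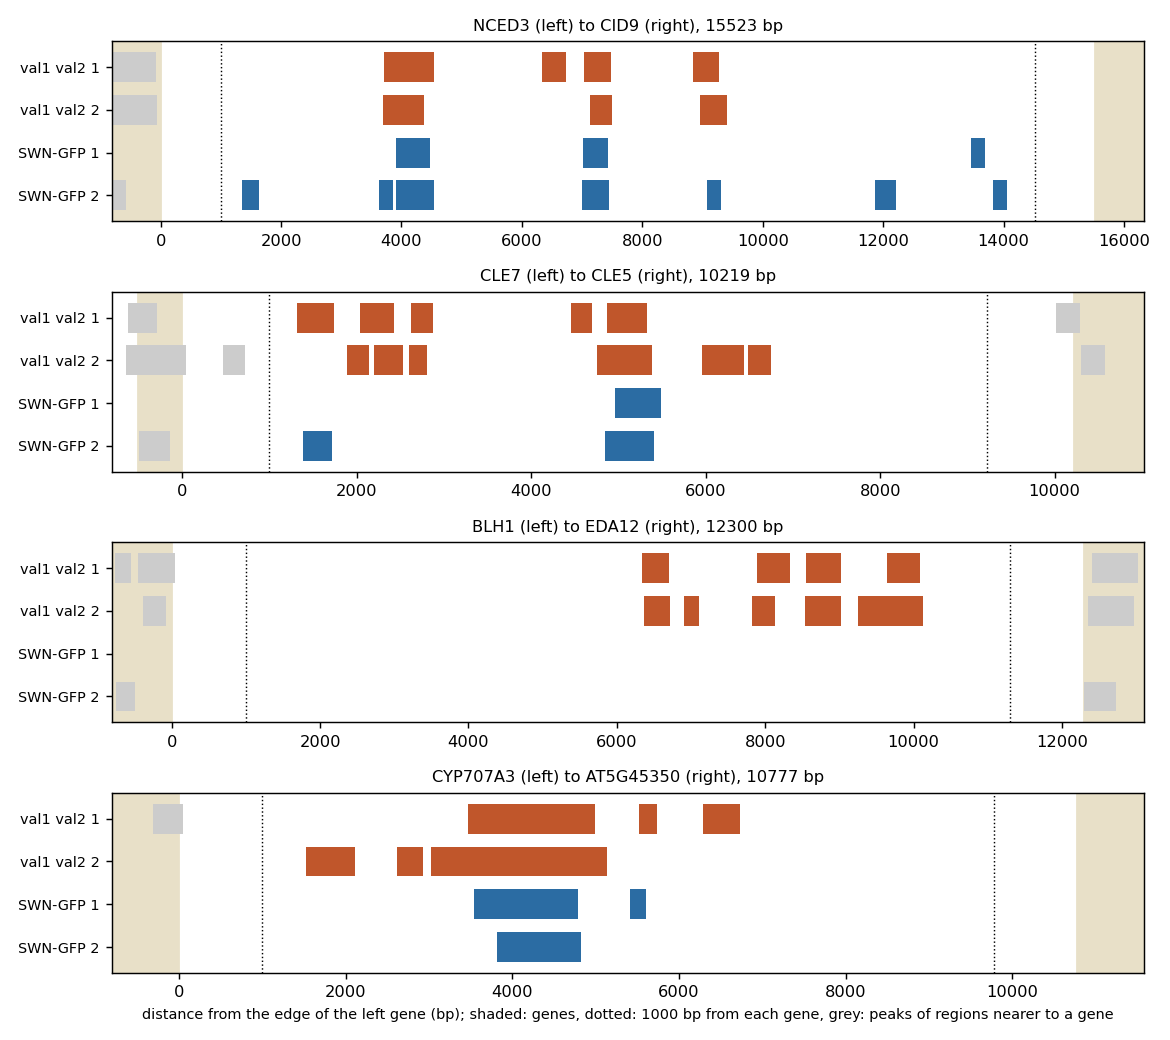
Peaks of each library along 4 intergenic gaps, by distance in bp from the edge of the gene on the left; shaded blocks are the flanking genes, dotted lines mark 1000 bp from each gene, and grey bars are peaks of regions nearer to a gene. Between BLH1 and EDA12 peaks over 1708 and 2233 bp appear in the val1 val2 lists and none in the SWN-GFP lists.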

How the data were processed

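Bowtie2, SAMtools, Picard and MACS2 were used on build TAIR10, per the submitters' processing notes; their versions and settings, like the controls, are left unstated there. The authors deposited 1 headerless peak list per library, read as a MACS2 table of 10 columns. The deposited pileup is a signal of fragments at the summit. The deposited −log10 p and −log10 q are the peak caller's own. The deposited fold is the authors' ratio of pileup to local background; folds are printed by list, and strength was compared by percentile within each list. No deposited column is a count per region, so depth is unknown.

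Gene names, types and distances came from a RefSeq table of TAIR10.1 with 37887 nuclear genes and no strand; none of its coordinates are printed. As a check of the shared coordinates, protein-coding spans held 69.9% of the SWN-GFP replicate 1 summits, and 46.6% or 46.7% once these were moved by 1000 bp. Regions, classes and tests were computed in Python 3.11.15 with pandas 2.3.3. Merging, distances, membership and classes were checked on simulated data. The rule named the 10 kept, 8 lost and 8 gained members of highest mean percentile, the 5 longest, and list genes. Members and lists were chosen with earlier results of these data known.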

Additional observations from a re-analysis of the deposited data

How the results depend on the processing

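Genotype differences in regions with a peak, share of peaks, covered length and median percentile kept their direction in all settings run, but not their size. With lists cut to equal length, the percentile difference was 10.9 points instead of 5.57, the share of peaks 0.598 instead of 0.967 percentage points and the covered length 46424 instead of 73461.5 bp. Without SWN-GFP replicate 1 the share differed by 0.495 points and the covered length by 48504 bp, and without SWN-GFP replicate 2 the percentile differed by 3.39 points, as it did by 3.25 points with distance taken from protein-coding genes only. The median peak length of gene-distant regions, 15.5 bp longer in SWN-GFP val1 val2, was -68.75 bp with peaks of a fold of at least 4, and from -0.25 to 38.5 bp with single libraries left out. Extending genes by 500 bp gave 1767 regions, of which 173 were lost (9.79%), 248 gained (14%) and 218 kept (12.3%). Extending them by 2000 bp gave 363, of which 28 were lost (7.71%), 68 gained (18.7%) and 46 kept (12.7%). Using protein-coding genes only gave 1607, of which 149 were lost (9.27%), 241 gained (15%) and 281 kept (17.5%). There, 56.8% of nearest genes held a peak. In each of these settings 8.91% of all regions were lost, 12.3% gained and 31.0% kept. With a fold of at least 4 there were 94, of which 8 were lost (8.51%, against 17.0% of all regions), 17 gained (18.1%, against 11.0%) and 19 kept (20.2%, against 35.2%), and 30.9% of nearest genes held a peak. Fewer peaks or other distances change these counts by construction. A cut at a fold of 4 also falls at a lower percentile in the SWN-GFP lists than in the val1 val2 lists. With single libraries left out, gained regions ranged from 189 to 376 and lost ones from 104 to 244. Dropping val1 val2 replicate 1 or 2 gave 376 or 316 gained, with 27.3% or 25.3% of all regions gained. Dropping SWN-GFP replicate 1 or 2 gave 244 or 184 lost, with 18.7% or 17.1% of all regions lost.

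Region by region, the replicate numbers showed little pairing. Deviations of same-numbered libraries from their genotype means had r = 0.007 over 4079 kept regions and -0.127 over the 126 gene-distant ones. These correlations do not measure a shift of whole lists. In both genotypes replicate 2 had more gene-distant regions with a peak than replicate 1 (583 against 498 in val1 val2, 439 against 371 in SWN-GFP). Its list was also the longer one in both. With a replicate block the difference in regions with a peak was 135.5 (exact sign-change permutation p = 0.5, the smallest possible), and no comparison passed with the numbers as given or crossed, a setting chosen after seeing the data. Unknown depth limits every count of missing peaks.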
